A study of Mus musculus with 2 samples.

Results

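Rab GTPases are small GTP-binding proteins that mark the membranes of the cell and direct vesicles between them. A Rab is switched on by an exchange factor (GEF), which loads GTP, recruits effectors such as tethers and motor adaptors while it is active, and is switched off by a GTPase-activating protein (GAP). Prenyl groups added by Rab geranylgeranyl transferase anchor it in the membrane, and GDP dissociation inhibitor (GDI) returns it to the cytosol. Macrophages and osteoclasts depend on Rabs for phagocytosis, for the maturation of endosomes into lysosomes and for the secretion of lysosomal contents. Folliculin, the product of *Flcn*, carries a DENN domain, a fold that it shares with a family of Rab exchange factors.

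The Rab genes were measured in RAW264.7 cells, which are mouse macrophages of an established line that can form osteoclasts, on 1 Affymetrix Mouse Genome 430 2.0 array per condition. One dish received scramble siRNA and the other received siRNA against *Flcn*, with 1 siRNA sequence each, and both groups otherwise shared the line, the 10% FCS medium, a change of medium at 24 hours and 48 hours of further culture. RANKL is not named for these samples. All genes were taken whose annotated symbol is Rab, a number and at most a letter and a digit, without regulators and effectors. This gave 59 of 18193 genes, with 132 probe sets, and no probe set named a Rab together with another gene.

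The values are linear signal intensities. Since each condition has 1 array, the differences lack a check by replicates and no test or p-value is given. Fewer cells that express a gene and less RNA per cell cannot be told apart. The brightest probe set, by geometric mean of both signals, stands for a gene. A floor was set at the median of each array, 12.8 for scramble and 13.6 for *Flcn* siRNA, and log2 ratios are *Flcn* siRNA over scramble siRNA. Median scaling, used as a comparison, divides each array by its own median and lowers all ratios above the floor by 0.09. A gene passed the signal filter when the geometric mean of its signals was at least 13.2, which 44 of the 59 Rab genes and 10285 of all genes did. Probe sets for the same gene differed by an SD of 0.19 in their log2 ratios (median over all genes with several of them above the filter) and by 0.14 over the 25 Rab genes that have several, a technical spread that is no replicate error. *Flcn* itself had signals of 209 and 145 at one probe set and 241 and 206 at the other with scramble and *Flcn* siRNA (log2 ratios -0.52 and -0.22), and another probe set lay under the floor on both arrays. *Gpnmb*, which serves as a readout of Tfe3 activity, had 294 and 2500.0 (8.49-fold higher). All 11 measured macrophage markers passed the filter, with log2 ratios from -0.23 (*Itgam*) to 0.17 (*Ctss*), and none of 7 T and B cell markers, 1 of 6 fibroblast markers and 2 of 5 epithelial markers did. Of 9 osteoclast markers 5 passed, all with log2 ratios above 0, and *Ctsk* (17.2 and 58.4) and *Atp6v0d2* (43.0 and 119) were past 1.5-fold. The part of these markers in the Rab values was not tested.

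The study follows *Flcn* in osteoclast formation and metabolism and proposes that it acts partly through Tfe3. This transcription factor is kept out of the nucleus by folliculin and binds E-boxes (CACGTG) and M-boxes. RefSeq promoters of GRCm38.p6, from 250 bases before to 50 bases after a gene's start, were found for 48 of the 59 Rab genes, with 60 promoters in all. The E-box core CACGTG was present on either strand in 6 of these 60 promoters (10.0%) and in 7.15% of all 32851 promoters. Its palindromic extension TCACGTGA, which contains that core, was present in the promoters of *Rab5a*, *Rab21* and *Rab24* (3 of 60 promoters, against 0.974% of all), and TCATGTGA, an M-box, in those of *Rab15* and *Rab28* (2 of 60, against 0.986%). These matches are letters in a window, and binding was not measured. The stretches that lie before the start site are printed here with the match in capitals, so that they can be read beside the signals of the same genes, and *Rab27a*, which holds the core alone in its second promoter, is included because it is the only Rab gene past 1.5-fold. *Rab20* and *Rab23* also hold the core alone, with log2 ratios of -0.02 and 0.10, and are not printed. They lie at chr17:53479118-53479165 (plus strand), chr10:115315595-115315642 (minus), chr12:76818547-76818594 (minus), chr5:41708398-41708429 (minus) and chr9:73063898-73063927 (plus).
Rab5a: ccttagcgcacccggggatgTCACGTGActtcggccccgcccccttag
Rab21: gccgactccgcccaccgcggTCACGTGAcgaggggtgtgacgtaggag
Rab15: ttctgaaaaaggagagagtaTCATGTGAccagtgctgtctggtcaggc
Rab28: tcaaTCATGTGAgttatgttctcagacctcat
Rab27a: cttgCACGTGctcctccgtctgtctgaacc

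By the brightest probe set, few Rab genes were past 1.5-fold, and whether they differ less than other genes was not tested. Of 44 Rab genes above the filter, 1 was called higher by 1.5-fold or more, *Rab27a*, and 0 were called lower. Over all genes above the filter, 5.84% were called higher and 5.54% lower. With only probe sets unique to 1 transcript, 3 of 39 Rab genes were lower by 1.5-fold or more, against 5.65% of all genes. The log2 ratios ran from -0.53 to 0.66, and those of 23 Rab genes (52.3%) lay within 0.19 of 0, where 45.9% of all genes did. The median was -0.07 with quartiles at -0.19 and 0.12, against 0.01 with quartiles at -0.19 and 0.22 over all genes. A log2 ratio above 0 was found for 17 of the 44, or 38.6%, where 51.7% of all genes had one. At the smaller size of 1.25-fold, which was chosen after the values were seen, 5 Rab genes were higher (*Rab27a*, *Rab15*, *Rab35*, *Rab11b* and *Rab9*) and 3 were lower (*Rab27b*, *Rab19* and *Rab5b*), against 16.6% and 15.5% of all genes.

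**Figure D1:**
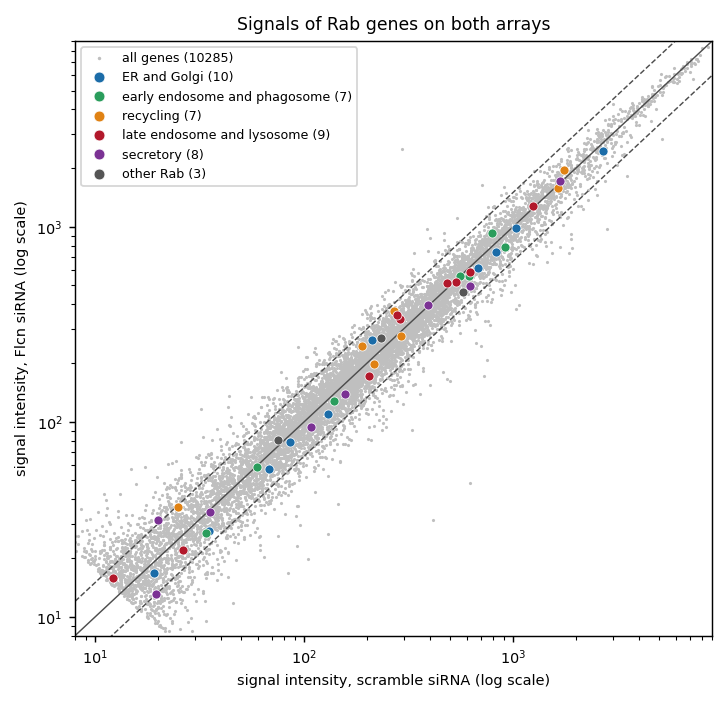
Signal intensity on the scramble siRNA array (x, log scale) against the *Flcn* siRNA array (y, log scale) for genes above the signal filter, with all genes in grey and 44 Rab genes coloured by traffic group. The solid line marks equal signals and the dashed lines 1.5-fold; among Rab genes *Rab27a*, at signals of 20.0 and 31.5, lies beyond the upper dashed line, and *Rab27b* (19.6 and 13.0) touches the lower one, where its *Flcn* siRNA signal is drawn as measured, below the floor.

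Rabs of the ER and Golgi, which move cargo between these compartments, had a median log2 ratio of -0.15 over 10 genes above the filter. Ratios were below 0 for 9 of the 10, where 51.7% of all genes lay above 0. The median and 6 of the 10 ratios lay within 0.19 of 0, the spread between probe sets. *Rab1a*, the Rab of ER-to-Golgi transport, had a signal of 2696 with scramble siRNA and 2451 with *Flcn* siRNA, and 684 and 622 at its other probe set, a log2 ratio of -0.14 at both. *Rab1b*, its close paralog with the same task, was the exception of the group, with 212 and 263 (log2 ratio 0.32). The paralogs thus lay on opposite sides of 0. *Rab2a*, which acts in transport between Golgi and ER, had 1031 and 982 at its brightest probe set and log2 ratios from -0.39 to -0.02 over 4 probe sets. *Rab6a*, of traffic within the Golgi and back to the ER, had 828 and 744, with ratios from -0.31 to -0.03 over 3 probe sets. *Rab18*, which sits on the ER and on lipid droplets, had 676 and 611 (-0.15) and 360 and 304 (-0.24). All probe sets of *Rab1a*, *Rab2a*, *Rab6a* and *Rab18* above the filter were lower on the *Flcn* siRNA array. The lowest of the group were *Rab19* (35.0 and 27.5, log2 ratio -0.35) and *Rab33b*, a Golgi Rab that binds the autophagy protein Atg16l1 (130 and 110, -0.24). *Rab43*, *Rab36* and *Rab2b* had probe sets on both sides of 0, the last from -0.46 to 0.21 over 5 probe sets. None of the 10 reached 1.5-fold at any probe set. The median was the lowest of the 5 traffic groups here, -0.24 with median scaling and -0.14 with quantile normalization, but secretory Rabs were lower with the filter at the 75th percentile (-0.18 against -0.14) and with Rabs of 2 sites moved to their other group (-0.18 against -0.15).

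Rabs of early endosomes and phagosomes had a median log2 ratio of -0.11 over 7 genes, with 2 above 0. *Rab5a*, which drives the fusion of early endosomes and holds the extended E-box printed above, had a signal of 919 with scramble siRNA and 789 with *Flcn* siRNA (-0.22). *Rab5b*, at the lower signals of 33.9 and 27.0, had -0.33 and at its other probe set -0.44, while *Rab5c* had 557 and 562 (0.01, or -0.07 with median scaling). Among the 3 Rab5 isoforms the first and second were thus lower and the third was about level. *Rab22a*, of early endosomes and sorting, was lower at all 4 of its probe sets, from 70.6 against 50.2 (-0.49) to 139 against 128 (-0.11). *Rab21*, which acts in integrin uptake and also holds the extended E-box, had 618 and 560 (-0.14) and 40.9 and 45.0 (0.14), on both sides of 0. *Rab31*, of transport between the trans-Golgi network and endosomes, was the highest of the group, with 790.0 and 928 (0.23) and 145 and 157 (0.12). *Rab20*, a Rab of macrophage phagosomes, had 59.3 and 58.6 (-0.02). No probe set of these 7 genes reached 1.5-fold.

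Recycling Rabs, which return membrane and receptors to the cell surface, had a median log2 ratio of 0.16 over 7 genes, with 4 above 0, which depended on the probe set and on the assignment of Rabs to groups. *Rab35*, of rapid recycling to the plasma membrane, had a signal of 269 with scramble siRNA and 370.3 with *Flcn* siRNA (1.38-fold) at its single probe set. *Rab15*, whose promoter holds the M-box, had 24.8 and 36.5 (1.47-fold), close to the floor. Both were higher on the *Flcn* siRNA array and short of 1.5-fold. *Rab14*, which links Golgi and endosomes, had 1750.5 and 1952 (0.16) at its brightest probe set, and 5 of its 7 probe sets had ratios above 0 (-0.25 to 0.20 in all). *Rab11b*, of the recycling endosome, had 189 and 243 at its brightest probe set (0.37), but 68.8 and 37.2 (-0.89) and 19.6 and 14.3 (-0.45) at the others. Its paralog *Rab11a* had 1649 and 1576 (-0.07) and 275 and 179 (-0.62). The probe sets of *Rab11b* thus disagree in direction, with 1 past 1.5-fold on the lower side, while both of *Rab11a* were lower, 1 of them past 1.5-fold. *Rab12*, which steers the transferrin receptor to degradation, had 216 and 198 (-0.13), and at its second probe set 23.1 and 10.8, at least 1.70-fold lower, as the second signal lies under the floor. *Rab12* was counted with the recycling Rabs here, and outside the traffic groups where Rabs of 2 sites were moved. *Rab4b*, of fast recycling from early endosomes, had 290.2 and 276 (-0.07, or -0.16 with median scaling). Averaged over all probe sets, the group's median was -0.075 in place of 0.16, and 3 of 7 genes had ratios above 0. With Rabs of 2 sites in their other group it was 0.02, while late endosomal Rabs had 0.14 over the 4 genes then left to them.

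**Figure D2:**
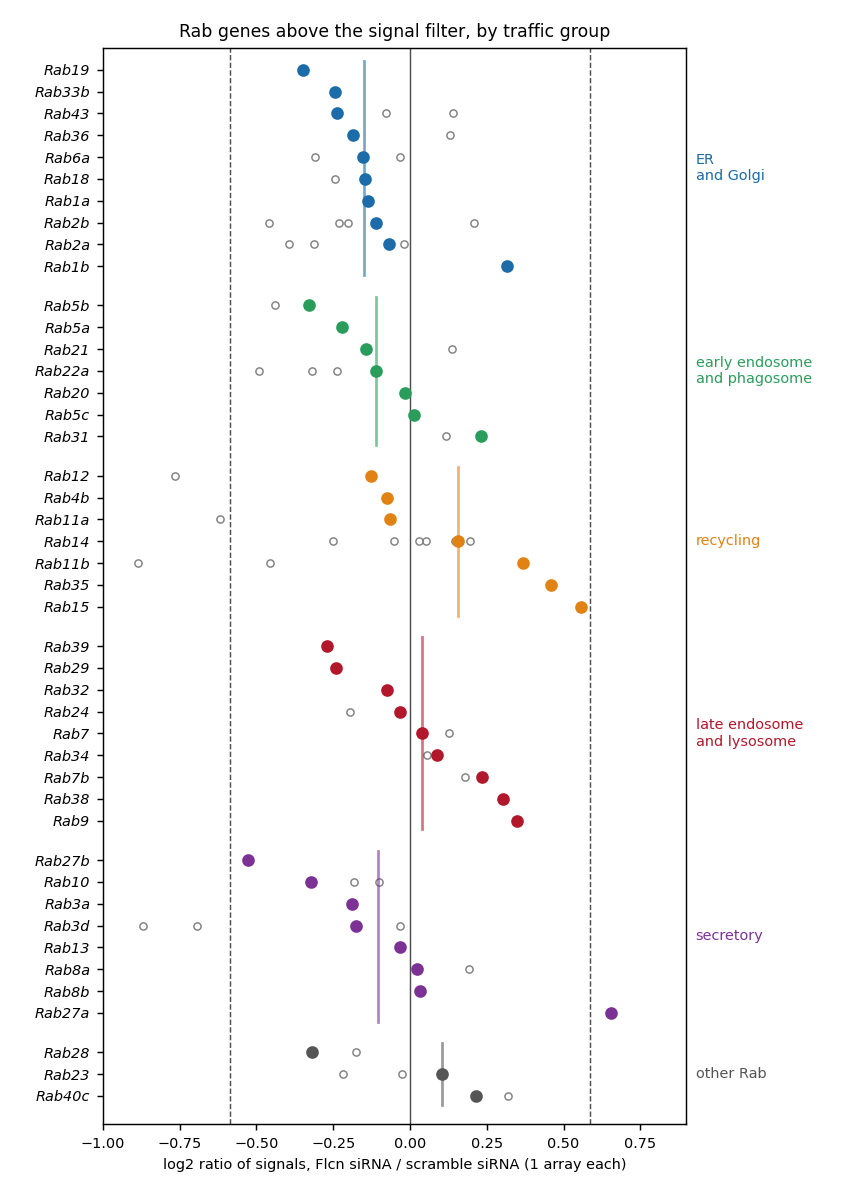
Log2 ratio of the signals (x), *Flcn* siRNA over scramble siRNA, for 44 Rab genes above the signal filter, 1 array per condition. Filled points are the brightest probe set of each gene, open points its other probe sets above the filter, coloured bars the group medians and dashed lines 1.5-fold; points of *Rab27b* and *Rab38*, the lowest of *Rab12* and 1 of *Rab3d* (-0.03) include a signal raised to the floor. In the ER and Golgi group 9 of 10 filled points lie left of 0, and the open points of *Rab11b*, *Rab3d*, *Rab12* and *Rab11a* reach beyond the left dashed line.

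Rabs of late endosomes and lysosomes had a median log2 ratio of 0.04 over 9 genes, with 5 above 0 and none past 1.5-fold. *Rab7*, which drives the fusion of late endosomes with lysosomes and serves the ruffled border of osteoclasts, had a signal of 1247 with scramble siRNA and 1281 with *Flcn* siRNA (0.04) and 682 and 745 (0.13). Its relative *Rab7b* had 286 and 337 (0.23) and 255 and 289 (0.18). *Rab9*, which returns mannose 6-phosphate receptors from late endosomes to the Golgi, had 277 and 352 (0.35), the highest ratio of the group. *Rab7*, *Rab7b* and *Rab9* were higher on the *Flcn* siRNA array at every probe set above the filter, although the brightest probe set of *Rab7* had -0.05 with median scaling. *Rab34*, which positions lysosomes, had 482 and 513 (0.09) and 336 and 349 (0.05). *Rab32* and *Rab38* serve lysosome-related organelles such as melanosomes, and *Rab32* had 621 and 589 (-0.08). *Rab38*, measured by a probe set that can bind other transcripts, had 12.1 and 15.8, at least 1.23-fold higher. It passed the filter with 1 of its 2 signals under the median. On the lower side were *Rab29*, a Rab that recruits the kinase Lrrk2 (204 and 172, -0.24), *Rab39* (26.4 and 21.9, -0.27) and *Rab24*, which is linked to autophagy (530.2 and 519, -0.03, and 414 and 361, -0.20). *Rab24* holds TCACGTGA across the bases just after its start, a stretch not printed here. The median of the group turned to -0.05 with median scaling and was 0.06 with quantile normalization.

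Secretory Rabs, which bring granules and vesicles to the plasma membrane, had a median log2 ratio of -0.11 over 8 genes, with 3 above 0. *Rab27a*, which docks lysosome-related organelles for secretion, was the 1 Rab gene past 1.5-fold, with a signal of 20.0 with scramble siRNA and 31.5 with *Flcn* siRNA (1.57-fold). It was 0.57 on the log2 scale, short of 1.5-fold, with median scaling, and its 3 other probe sets lay under the filter. *Rab27b*, its paralog, had 19.6 and 13.0, at least 1.44-fold lower, at a probe set that can bind other transcripts. The other probe sets of *Rab27b* lay under the floor on both arrays. Both Rab27 genes had signals close to the floor, and they lay on opposite sides of 0. *Rab3d*, of secretory granules in non-neuronal cells, was lower at all 4 of its probe sets above the filter, with 157 and 139 (-0.18) at the brightest, 110.3 and 60.3 (-0.87), 62.7 and 38.8 (-0.69) and 13.9 and 12.8 (-0.03 with the floor). Thus 2 of its 4 probe sets were past 1.5-fold on the lower side, although the probe set that stood for the gene was not. *Rab10*, which brings vesicles from the Golgi and endosomes to the surface, was lower at all 3 of its probe sets, from 619 against 495 (-0.32) to 516 against 481 (-0.10). *Rab8a* and *Rab8b*, of exocytosis and surface protrusions, had 393 and 399 (0.02) and 1678 and 1715 (0.03), and both lay below 0 with median scaling (-0.07 and -0.06). *Rab13*, which acts at cell junctions, had 35.3 and 34.5, and *Rab3a*, the Rab of synaptic vesicles, had 107 and 94.3 at a probe set that can bind other transcripts. The other probe set of *Rab3a* did not pass the filter and went the other way, with 8.6, under the floor, and 18.3.

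Over all 88 Rab probe sets above the filter, 1 was past 1.5-fold on the higher side and 5 on the lower side, where 6.52% and 5.91% of all probe sets above the filter were. The 5 lower ones belonged to *Rab3d*, with 2, and to *Rab11a*, *Rab11b* and *Rab12*, with 1 each. Of 25 Rab genes with several probe sets above the filter, 12 had all of them below 0 (48.0%), 6 had all of them above 0 (24.0%) and 7 had them on both sides (28.0%). Over all 5034 such genes the shares were 25.1%, 29.8% and 45.0%. The genes with every probe set above 0 were *Rab7*, *Rab7b*, *Rab8a*, *Rab31*, *Rab34* and *Rab40c*. *Rab40c*, which has a SOCS box and takes part in a ubiquitin ligase, had 233 and 270.4 (0.22), and its other probe set had a log2 ratio of 0.32. Of the 2 other Rabs outside the 5 groups, *Rab28*, a Rab of cilia whose promoter holds the M-box, had 577 and 463 (-0.32) and 264 and 234 (-0.17), and *Rab23*, which acts in Hedgehog signalling, had 74.7 and 80.3 (0.10) with other probe sets below 0. *Rab15* and *Rab28*, with the same motif, lay on opposite sides of 0, and the brightest probe sets of *Rab5a*, *Rab21* and *Rab24* lay below it. A part of the motifs in these ratios was not tested.

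Paralogs were grouped by the number in their symbols alone, and sequence identity was not computed. Of 8 such sets with several members above the filter, 4 lay on both sides of 0, Rab1, Rab5, Rab11 and Rab27. With median scaling the Rab5 set did not, while the Rab7 pair did (*Rab7* -0.05 and *Rab7b* 0.15). The Rab5 set is counted only through *Rab5c*, at 0.01. The share for paralogs of other families was not computed, so the count is not read as a trait of Rabs. Between the brightest probe sets the log2 ratios differed by 1.18 for *Rab27a* over *Rab27b*, with *Rab27b* at the floor, by 0.45 for *Rab1b* over *Rab1a*, by 0.43 for *Rab11b* over *Rab11a* and by 0.34 for *Rab5c* over *Rab5b*. The differences were 0.20 for *Rab7b* over *Rab7*, 0.04 for the Rab2 pair and 0.01 for the Rab3 and Rab8 pairs. With the mean of each gene's probe sets, the Rab1, Rab5 and Rab27 sets differed by 0.45, 0.40 and 1.18 and still lay on both sides of 0. Each Rab27 gene had a single probe set above the filter, so that its mean is the same value. The Rab11 pair came to 0.02, with both genes below 0 (-0.34 for *Rab11a* and -0.32 for *Rab11b*). The Rab3 pair widened to 0.26, as *Rab3d* had a mean of -0.44 and *Rab3a* -0.19 at its single probe set above the filter. The Rab2, Rab7 and Rab8 pairs differed by 0.04, 0.12 and 0.08.

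**Figure D3:**
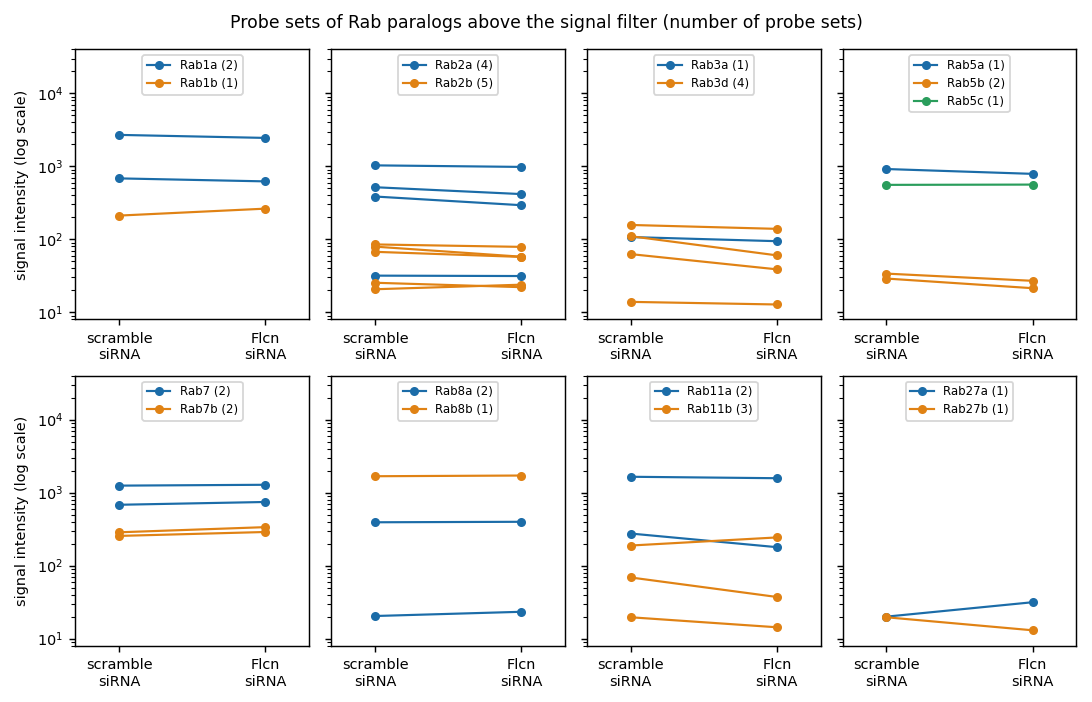
Signal intensity (y, log scale) of each probe set above the signal filter for Rab paralogs on the scramble siRNA array (left point) and the *Flcn* siRNA array (right point), as measured, with the number of probe sets in parentheses. Lines of *Rab1b*, *Rab7b* and *Rab27a* climb, those of *Rab1a*, *Rab3d* and *Rab5b* descend, and those of *Rab11b* go both ways.

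The other 15 Rab genes did not pass the signal filter. Both signals lay under the array medians for 13 of them, so that no ratio is given for *Rab3c*, *Rab4a*, *Rab6b*, *Rab9b*, *Rab17*, *Rab25*, *Rab26*, *Rab30*, *Rab37*, *Rab39b*, *Rab40b*, *Rab42* and *Rab44*. *Rab17* and *Rab25* are Rabs of epithelial cells and *Rab3c* is one of neurons. The others were *Rab33a*, with 20.3 on the control array and 6.8 after *Flcn* siRNA (at least 1.49-fold lower), and *Rab3b*, with 13.3 and 5.7.

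Genes that act on Rabs also had ratios below 0 more often than above. Among exchange factors 13 of 44 genes above the filter lay above 0 (median log2 ratio -0.11), among GAPs 9 of 34 (-0.11), among prenylation, GDI and Rab-binding membrane proteins 2 of 14 (-0.23) and among effectors 19 of 49 (-0.09), where the share over all genes was 51.7%. The lists were written from general knowledge, and *Evi5* is in 2 of them. With median scaling, 39.8% of all genes lay above 0, and 8, 7, 1 and 12 genes of these lists did. By 1.5-fold or more, 1 exchange factor was higher and 1 lower, and 2 GAPs were higher and 1 lower. Among prenylation, GDI and Rab-binding membrane proteins 1 gene was lower, the membrane protein *Yipf2*, and 2 effectors were lower and 0 higher. These shares are to be read against the 5.84% and 5.54% of all genes called.

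Of the 14 genes of prenylation, GDI and Rab-binding membrane proteins, 1 was lower by 1.5-fold or more and 0 were higher. Over all genes the shares were 5.54% and 5.84%. *Rabggtb* and *Rabggta*, the catalytic and the other subunit of Rab geranylgeranyl transferase, had signals of 570.4 and 661 (0.21) and of 148 and 154 (0.05) with scramble and *Flcn* siRNA, and they were the 2 members of their list above 0. *Rabggta* lay below 0 with median scaling. *Chm* and *Chml*, the Rab escort proteins that present Rabs to this enzyme, had 190 and 170.3 (-0.15) and 113 and 89.9 (-0.32). At its other probe set *Chm* had 109 and 83.4 (-0.39). *Gdi2*, a GDP dissociation inhibitor, had 3844 and 3716 (-0.05). The catalytic subunit *Rabggtb* thus lay above 0 and the escort proteins below it, all within 1.5-fold. *Rabggta* (0.05) and the brightest probe set of *Chm* (-0.15) lay within the probe set spread of 0.19. *Rabac1*, a prenylated Rab acceptor of the Golgi, had 759 and 574 (-0.40). *Yipf2*, a Golgi membrane protein, was past 1.5-fold with 137 and 80.9 (-0.76), but had 76.0 and 71.5 (-0.09) at its other probe set. At the brightest probe set, *Rabac1* and the Yipf and Yif1 genes of the list all lay below 0, from -0.76 to -0.08.

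Of 49 effectors, 2 were past 1.5-fold. *Uso1* (p115), a tether that binds Rab1, had a signal of 1427 with scramble siRNA and 922 with *Flcn* siRNA (1.55-fold lower). *Golgb1* (giantin), a Golgi membrane protein, had 154 and 76.9 (2.00-fold lower), with other probe sets under the filter. The other golgins of the list, *Golga2*, *Golga5* and *Gcc2*, had log2 ratios of -0.27, -0.19 and 0.07. Among exchange factors, *Dennd1c*, a DENN-domain protein that acts on Rab35, was lower at both of its probe sets, with 83.7 and 55.2 (-0.60) and 23.6 and 12.2 (at least 1.74-fold). Its relatives *Dennd1a* and *Dennd1b* were also lower (-0.39 and -0.21), within 1.5-fold. *Rab35* was higher at its single probe set, short of 1.5-fold, and a link between these values was not tested. *Trappc5*, a subunit of the TRAPP complex that activates Rab1, was higher with 122 and 198 (0.70) and had 62.9 and 73.5 (0.22) at its other probe set. Of the other TRAPP subunits in the list, *Trappc9* (0.50) and *Trappc10* (0.01) also lay above 0. *Trappc1*, *Trappc2*, *Trappc3*, *Trappc4*, *Trappc6a* and *Trappc6b* lay below it, from -0.48 to -0.06. Among GAPs, *Sgsm3* (20.2 and 36.3, 0.85) and *Sgsm2* (16.6 and 26.5, 0.67) were higher and *Evi5l* (27.6 and 10.8, at least 2.03-fold) was lower, all at signals close to the floor.

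**Figure D4:**
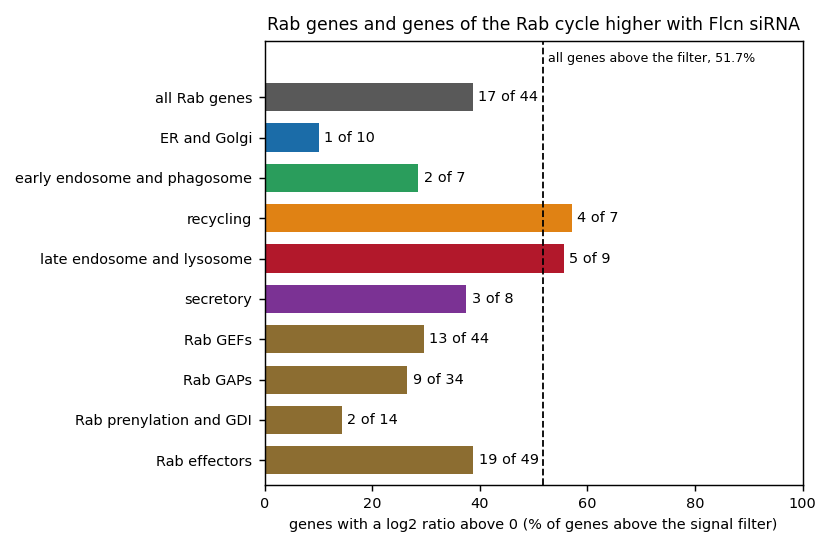
Share of genes with a log2 ratio above 0 (x, percent of genes above the signal filter; *Flcn* siRNA over scramble siRNA, 1 array each) for Rab genes, their traffic groups and genes of the Rab cycle, with counts beside the bars. The dashed line is the share over all 10285 genes above the filter, 51.7%; the bars of recycling Rabs (4 of 7) and late endosomal Rabs (5 of 9) pass it and those of the other lists end short of it.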

How the data were processed

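RNA of RAW264.7 cells was hybridised to 1 Affymetrix expression array per condition. GCOS 1.0 was the authors' software, and the deposited intensities are its linear signals for every probe set, without detection calls. How GCOS scaled them is not given in the sources used here. The mean signal without the outer 2% at each end was 99.4 on both arrays. Of 45101 probe sets, 34945 name 1 gene in the platform annotation, 932 name several, 9160 are unlisted and 64 are controls. Only the first kind was used, and 34741 of them matched RefSeq of GRCm38.p6 for symbols. Floor, filter (geometric mean of both medians) and choice of the brightest probe set were applied as described, and genes were called at 1.5-fold by size alone. The number of arrays limits the precision. Members, groups and lists were chosen with earlier results of these data known. The genes described are those called at any probe set, the extremes of each group, their paralogs and the called regulators, with other members as examples. Promoter motifs were searched on both strands. Protein features were not analysed here. Functions were tested on simulated data. Calculations used pandas 2.3.3, numpy 2.4.6, matplotlib 3.10.9 and scipy 1.17.1 under Python 3.11.15. Alternatives were the scaling, the probe set, the floor, the filter and the group of Rabs that work at 2 sites. Limits for a move were 0.19 for a median or ratio, 1.5 times for a count and the 95% Wilson interval for a share.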

Additional observations from a re-analysis of the deposited data

How the results depend on the processing

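Of 124 summary values recomputed under an alternative, 108 stayed within the limits set for them, and of 378 ratios of single Rab genes 8 moved. The 8 belonged to 5 genes (*Rab3d*, *Rab11a*, *Rab11b*, *Rab12* and *Rab23*) and arose from another choice of probe set. With median scaling 0 Rab genes were higher and 1 was lower by 1.5-fold or more, and 4 exchange factors and 4 effectors were past it in either direction in place of 2 and 2. With quantile normalization, with no floor and with a floor at the 25th percentile, 1 Rab gene was lower. With only probe sets unique to 1 transcript 3 Rab genes were lower, *Rab3d*, *Rab11a* and *Rab12*. Of the list of prenylation, GDI and Rab-binding membrane proteins 0 genes were then past 1.5-fold. With the mean of all probe sets, 0 genes of that list were past it, and the median of recycling Rabs was -0.075. With the filter at the 75th percentile, 0 of 31 Rab genes were higher, and 1 exchange factor and 0 GAPs were past 1.5-fold. Called at 1.25-fold, an alternative chosen after seeing the data, 5 Rab genes were higher and 3 lower. With no filter the median of all Rab genes was 0.02, because genes with both signals under the floor take the ratio of the floors, 0.09. The signs of 4 Rab genes (*Rab5c*, *Rab7*, *Rab8a* and *Rab8b*) differed between scalings. *Rab11b* turned from 0.37 to -0.32 and *Rab23* from 0.10 to -0.05 when probe sets were averaged, and *Rab23* to -0.22 with unique probe sets. No paired analysis was possible because each condition had 1 array, and no array could be left out.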
